A study of Homo sapiens with 4 samples.

Results

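TERT, the D cyclins and the CDK4 pathway were described as 10 genes, named by symbol, in spheroids of 4 human colon cell lines. The genes are TERT, CDK4, CDK6, CCND1, CCND2, CCND3, CDKN2A, CDKN2B, CDKN1B and RB1, of 58740 genes in the deposited gene table. They were chosen by name and not by a cut on their values, though with earlier results of these data known. All 10 reached at least 1 FPKM in 1 or more libraries, as did 18637 genes in all. FPKM is a fragment count scaled to transcript length and library size.

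The lines were HCT116 and DLD-1, from primary colorectal carcinomas, SW620, from a colorectal cancer metastasis, and HCEC-1CT, from normal colon. HCEC-1CT was immortalised with introduced copies of TERT and CDK4, and the cancer lines were not. The labels give all 4 lines as epithelial with a wild-type genotype. Cells grew for 7 days in low-attachment wells with serum, and RNA of compact spheroids from 2 plates made 1 library per line. With 1 library per line there was no replicate error and no test, so differences are given as values with counting intervals that cover counting error only. The cancer lines are 3 separate lines and not replicates, and their ratios share the same HCEC-1CT library.

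The depth, read from steps in the low values, was about 25300000 fragments in HCT116, 23300000 in DLD-1, 28700000 in SW620 and 29500000 in HCEC-1CT. The label of an epithelial cell was checked against 8 epithelial markers, whose summed level was 1535, 5340 and 6770 FPKM in HCT116, DLD-1 and SW620, against 7.25 FPKM in HCEC-1CT. EPCAM, CDH1, KRT19 and KRT20 were listed at 0 in HCEC-1CT. VIL1 and CDH17 were near 0 in HCT116 too, at 0.0919 and 0.0833 FPKM, against 0.0492 and 0.0551 FPKM in HCEC-1CT. The sum of 10 fibroblast markers was 12.7, 1.46 and 28.0 FPKM in HCT116, DLD-1 and SW620, against 1147 FPKM in HCEC-1CT. Of these, 10 of 10 were at least 2-fold lower in all 3 cancer lines, as were 7.11% of all 18637 genes. THY1, DCN, FAP, PDGFRA, PDPN, COL3A1 and COL1A2 reached 1 FPKM only in HCEC-1CT, so they had to be lower in the cancer lines. The HCEC-1CT library thus went against its label on these markers, and the part of this difference in every ratio given here was not tested. Summed endothelial markers were 0.791, 2.56 and 15.8 FPKM in HCT116, DLD-1 and SW620, against 5.45 FPKM in HCEC-1CT. Summed leukocyte markers were 4.83, 1.40 and 41.0 FPKM in the same cancer lines, against 7.56 FPKM in HCEC-1CT.

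TERT is the reverse transcriptase of telomerase, which adds repeats to chromosome ends and is silent in most somatic cells. D cyclins bind the kinases CDK4 and CDK6, and the complexes phosphorylate the retinoblastoma protein RB1, which releases E2F factors that switch on genes of DNA replication. The INK4 inhibitors p16INK4a and p15INK4b, from CDKN2A and CDKN2B, block CDK4 and CDK6, while p27, from CDKN1B, acts mainly on complexes of CDK2. An excess of CDK4 is used with TERT to immortalise human epithelial cells because it bypasses the arrest that p16INK4a imposes in culture.

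CDKN2A also encodes p14ARF, which protects p53 from MDM2. The 2 proteins start from separate first exons that join the same exon 2 in different frames, and the lines differed in which frame they used.

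TERT (ENSG00000164362, GRCh38 chr5:1253147-1295069, minus strand) was highest in the line that carries the introduced copy. Its level was 0.611 FPKM in HCT116, 1.09 FPKM in DLD-1 and 0.171 FPKM in SW620, against 2.83 FPKM in HCEC-1CT. All 3 cancer lines lay below HCEC-1CT, with counting intervals that did not overlap between any neighbours in the order of levels. These levels stand for about 53, 82 and 10 fragments in HCT116, DLD-1 and SW620, against 333 in HCEC-1CT. The 95% Poisson intervals were 0.458 to 0.799 FPKM for HCT116, 0.868 to 1.36 for DLD-1 and 0.0822 to 0.315 for SW620, against 2.54 to 3.15 FPKM in HCEC-1CT. The log2 ratio of FPKM + 1, which understates the change of low genes, was -1.25 for HCT116, -0.87 for DLD-1 and -1.71 for SW620. With a pseudocount of 5 the ratios of HCT116 and SW620 were -0.48 and -0.60, inside 2-fold.

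The main TERT transcript, TERT-201, of 4018 bases, held 84.5% of the gene for HCT116, 74.6% for DLD-1 and 29.3% for SW620, against 99.0% for HCEC-1CT. The short transcript TERT-205, of 406 bases within the gene, held 13.2%, 18.8% and 24.2% in HCT116, DLD-1 and SW620, against 0.0625% in HCEC-1CT. Its levels were 0.0807, 0.205 and 0.0414 FPKM in the cancer lines in that order, against 0.00177 FPKM in HCEC-1CT. Over so short a length these stand for a few fragments at most, so its shares do not show use of a short form. In SW620 the shares of both transcripts rest on about 10 fragments of the whole gene. Reads of the introduced copy and of the chromosomal gene cannot be told apart in these tables, so the HCEC-1CT value may hold both. In bulk RNA of this kind, fewer cells with a transcript and less of it per cell cannot be told apart, here and for every gene that follows.

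CDK4 (ENSG00000135446, chr12:57747727-57756013, minus strand), the other gene introduced into HCEC-1CT, differed far less. Its level was 26.1 FPKM in HCT116, 29.2 FPKM in DLD-1 and 21.3 FPKM in SW620, against 33.1 FPKM in HCEC-1CT. HCEC-1CT was again the highest, by log2 ratios of -0.33, -0.18 and -0.61 in HCT116, DLD-1 and SW620, all within 2-fold. The highest of the 4 levels was 1.55 times the lowest, the smallest range among the 10 genes. CDK4-201 was the main transcript everywhere, with 82.4%, 81.6% and 85.5% of the gene in HCT116, DLD-1 and SW620, against 75.7% in HCEC-1CT. The CDK4 span overlaps TSPAN31, MIR6759 and MARCH9, and the use of strand in the counting is not stated, so reads shared with them are uncertain.

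CDK6 (ENSG00000105810, chr7:92604921-92836594, minus strand), the second kinase of the D cyclins, showed the opposite order. It stood at 22.0 FPKM in HCT116, 9.46 FPKM in DLD-1 and 41.3 FPKM in SW620, against 5.74 FPKM in HCEC-1CT. Every cancer line lay above HCEC-1CT and no counting intervals overlapped, with about 12976 fragments in SW620, against 1781 in HCEC-1CT. On the log2 scale the ratio was 1.77 for HCT116, 0.63 for DLD-1 and 2.65 for SW620, so DLD-1 stayed within 2-fold. The transcript CDK6-201 held 94.8%, 84.6% and 93.8% of the gene in HCT116, DLD-1 and SW620, against 89.8% in HCEC-1CT.

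FPKM is per length, so levels of the kinases can be set against each other within a library. CDK4 was 1.19 times CDK6 for HCT116, 3.08 times for DLD-1 and 0.516 times for SW620, against 5.77 times in HCEC-1CT. SW620 was the only one of the 4 libraries with more CDK6 than CDK4. The summed level of both kinases was 48.1 FPKM in HCT116, 38.6 FPKM in DLD-1 and 62.6 FPKM in SW620, against 38.9 FPKM in HCEC-1CT, so DLD-1 and HCEC-1CT had nearly the same sum with different shares.

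**Figure D1:**
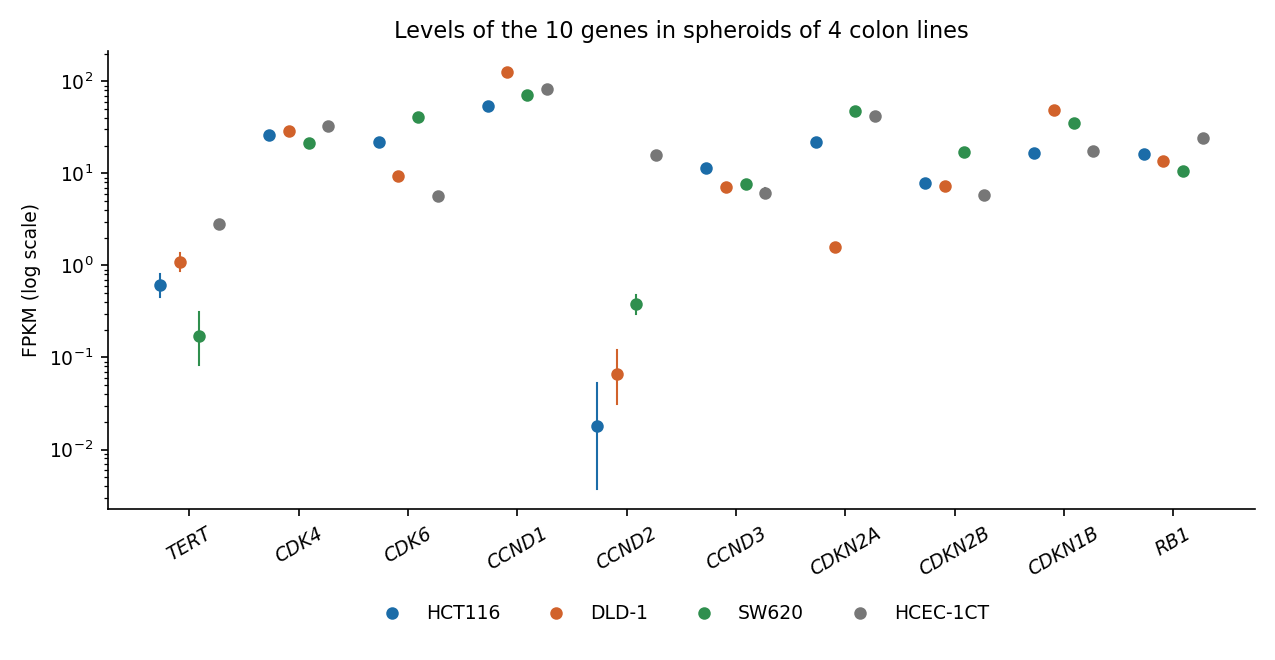
Level of each of the 10 genes in FPKM (log axis) in spheroids of HCT116, DLD-1, SW620 and HCEC-1CT, 1 library per line. Bars are 95% Poisson counting intervals, most of them smaller than the points, and CDKN2A in DLD-1 has none. TERT is highest in HCEC-1CT at 2.83 FPKM, CDK6 in SW620 at 41.3 FPKM, and CCND2 is under 1 FPKM in the 3 cancer lines.

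CCND2 (ENSG00000118971, chr12:4273772-4305350, plus strand), a D cyclin, had the widest range of the 10 genes, by the ratio of the highest to the lowest of the 4 levels. Its level was 0.0182 FPKM in HCT116, 0.0654 FPKM in DLD-1 and 0.381 FPKM in SW620, against 15.98 FPKM in HCEC-1CT. The cancer lines lay far below HCEC-1CT, and the intervals of DLD-1 and HCT116 overlapped. These levels stand for about 3, 10 and 71 fragments in HCT116, DLD-1 and SW620, against 2915 in HCEC-1CT. Its log2 ratio over HCEC-1CT was -4.06 for HCT116, -3.99 for DLD-1 and -3.62 for SW620, past 4-fold in each. CCND2 passed the 1 FPKM filter only through HCEC-1CT, so it had to be lower in the cancer lines.

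CCND1 (ENSG00000110092, chr11:69641087-69654474, plus strand), the D cyclin induced by growth factor and Wnt signals, was the most abundant of the 10 genes in every library. It stood at 53.4 FPKM in HCT116, 125 FPKM in DLD-1 and 70.7 FPKM in SW620, against 83.2 FPKM in HCEC-1CT. DLD-1 lay above HCEC-1CT while SW620 and HCT116 lay below it, each beyond the counting intervals. The log2 ratio was -0.63 for HCT116, 0.59 for DLD-1 and -0.23 for SW620, within 2-fold in all 3. With median-ratio scaling of the libraries the HCT116 ratio was -1.01. With equal library totals it was -1.08. The 3′ end of CCND1 overlaps ORAOV1 on the other strand, which had 4.67, 6.12 and 5.34 FPKM in HCT116, DLD-1 and SW620, against 8.74 FPKM in HCEC-1CT.

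CCND3 (ENSG00000112576, chr6:41934933-42050357, minus strand), the D cyclin best known from lymphocytes, was at 11.4 FPKM in HCT116, 7.03 FPKM in DLD-1 and 7.74 FPKM in SW620, against 6.19 FPKM in HCEC-1CT. HCT116 stood above the other 3 libraries, while SW620 and DLD-1, and DLD-1 and HCEC-1CT, did not differ beyond their counting intervals. The log2 ratios of 0.79, 0.16 and 0.28 in HCT116, DLD-1 and SW620 were within 2-fold, and the DLD-1 ratio turned to -0.20 with median-ratio scaling.

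The CCND3 transcripts differed more than the gene did. CCND3-203, which starts at the proximal 5′ ends, held 63.7% of the gene for HCT116, 19.0% for DLD-1 and 78.3% for SW620, against 21.4% for HCEC-1CT. CCND3-202, which starts at the distal 5′ ends far upstream, held 2.77%, 65.2% and 8.05% in HCT116, DLD-1 and SW620, against 12.4% in HCEC-1CT. Over all transcripts, the distal 5′ ends held 20.6% for HCT116, 72.8% for DLD-1 and 16.5% for SW620, against 33.6% in HCEC-1CT, so DLD-1 was the library with most of its CCND3 from the distal ends. This split of 16 distal and 7 proximal transcripts was chosen after the values were seen. The gene had about 554, 325 and 439 fragments in HCT116, DLD-1 and SW620, against 342 in HCEC-1CT. Its transcripts overlap, so these shares depend on how the authors' program divided shared reads, and no interval is given for them.

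The D cyclins together stood at 64.8 FPKM in HCT116, 132 FPKM in DLD-1 and 78.8 FPKM in SW620, against 105 FPKM in HCEC-1CT. CCND1 held 82.4% of that sum for HCT116, 94.6% for DLD-1 and 89.7% for SW620, against 79.0% for HCEC-1CT, and was the main D cyclin in all 4 libraries. CCND2 held 0.0281%, 0.0494% and 0.483% in HCT116, DLD-1 and SW620, against 15.2% in HCEC-1CT. CCND3 held 17.6% for HCT116, 5.31% for DLD-1 and 9.82% for SW620, against 5.87% in HCEC-1CT. The second D cyclin was thus CCND3 in the cancer lines and CCND2 in HCEC-1CT. The summed D cyclins were 1.35 times the summed kinases for HCT116, 3.43 times for DLD-1 and 1.26 times for SW620, against 2.71 times in HCEC-1CT.

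**Figure D2:**
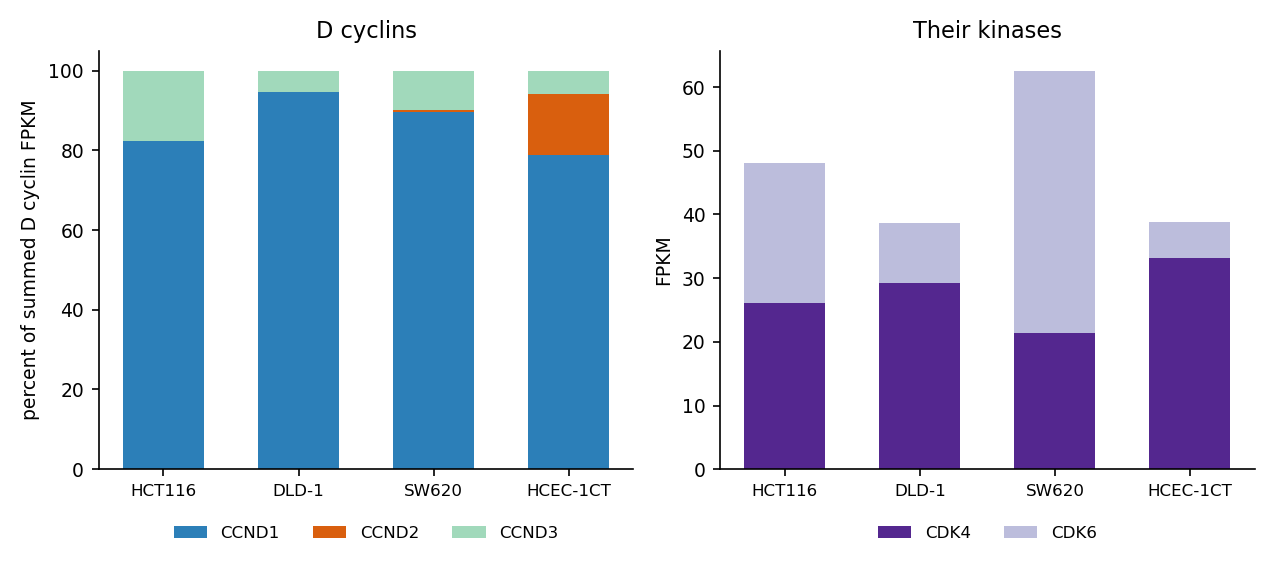
Left, share of CCND1, CCND2 and CCND3 in the summed D cyclin FPKM (percent); right, stacked FPKM of CDK4 and CDK6, in HCT116, DLD-1, SW620 and HCEC-1CT, 1 library per line. CCND2 holds under 1% in the cancer lines, against 15.2% in HCEC-1CT, and CDK6 exceeds CDK4 in SW620, at 41.3 FPKM of CDK6 and 21.3 FPKM of CDK4.

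CDKN2A (ENSG00000147889, chr9:21967753-22009272 in the deposited table, minus strand) ranged from near silence in DLD-1 to its highest level in SW620. The gene stood at 21.7 FPKM in HCT116, 1.59 FPKM in DLD-1 and 48.1 FPKM in SW620, against 41.6 FPKM in HCEC-1CT. DLD-1 lay far below the other 3 libraries, and SW620 lay a little above HCEC-1CT. An unannotated transcript that also spans CDKN2B made up 5.25 FPKM of the SW620 value, against 0.434 FPKM in HCEC-1CT. The order of SW620 and HCEC-1CT is therefore uncertain. On the log2 scale the ratio was -0.91 for HCT116, -4.04 for DLD-1 and 0.21 for SW620. The HCT116 ratio passed 2-fold with each of the 3 scalings tried, at -1.28, -1.35 and -1.10, and the SW620 ratio turned to -0.08, -0.06 and -0.01 with the same scalings.

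The gene value hid a difference between the reading frames. Transcripts with the p16INK4a start codon summed to 3.36 FPKM in HCT116, were listed at 0 in DLD-1, and summed to 0.481 FPKM in SW620, against 28.4 FPKM in HCEC-1CT. Transcripts with the p14ARF start codon summed to 10.2 FPKM in HCT116, were listed at 0 in DLD-1, and summed to 31.6 FPKM in SW620, against 10.7 FPKM in HCEC-1CT. The p16INK4a frame was thus far lower in every cancer line than in HCEC-1CT, while the p14ARF frame was close to HCEC-1CT in HCT116 and above it in SW620.

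As a share of both frames, p16INK4a made up 24.9% in HCT116 (95% Wilson interval 21.0 to 29.1%) and 1.499% in SW620 (0.970 to 2.41%), against 72.6% in HCEC-1CT (70.2 to 74.8%). These shares rest on about 427 and 1176 fragments in HCT116 and SW620, against 1418 in HCEC-1CT. None could be given for DLD-1. With the reference transcript of each frame alone, CDKN2A-201 for p16INK4a and CDKN2A-214 for p14ARF, the share was 21.2% in HCT116 and 0% in SW620, against 72.3% in HCEC-1CT. The frames share exons 2 and 3 in these transcripts, so their split depends on how the authors' program divided shared reads, and a library's share does not depend on its scaling. The Wilson intervals count every fragment of both frames, also those in shared exons, which do not tell the frames apart. They are therefore too narrow and leave out the error of that division.

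Transcripts annotated as coding from within exon 2 summed to 6.17 FPKM in HCT116, were listed at 0 in DLD-1, and summed to 6.99 FPKM in SW620, against 0.696 FPKM in HCEC-1CT. These carry neither start codon and were left out of the shares. In DLD-1, 90.5% of the gene value came from 1 transcript that no annotation names, TCONS_00210366, whose span, chr9:21968105-22009272, runs from near the 3′ end of CDKN2A across most of CDKN2B. It stood at 1.06 FPKM in HCT116, 1.44 FPKM in DLD-1 and 5.25 FPKM in SW620, against 0.434 FPKM in HCEC-1CT. Its strand, exons and length are not given in the table, so no counting interval was given for CDKN2A in DLD-1.

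**Figure D3:**
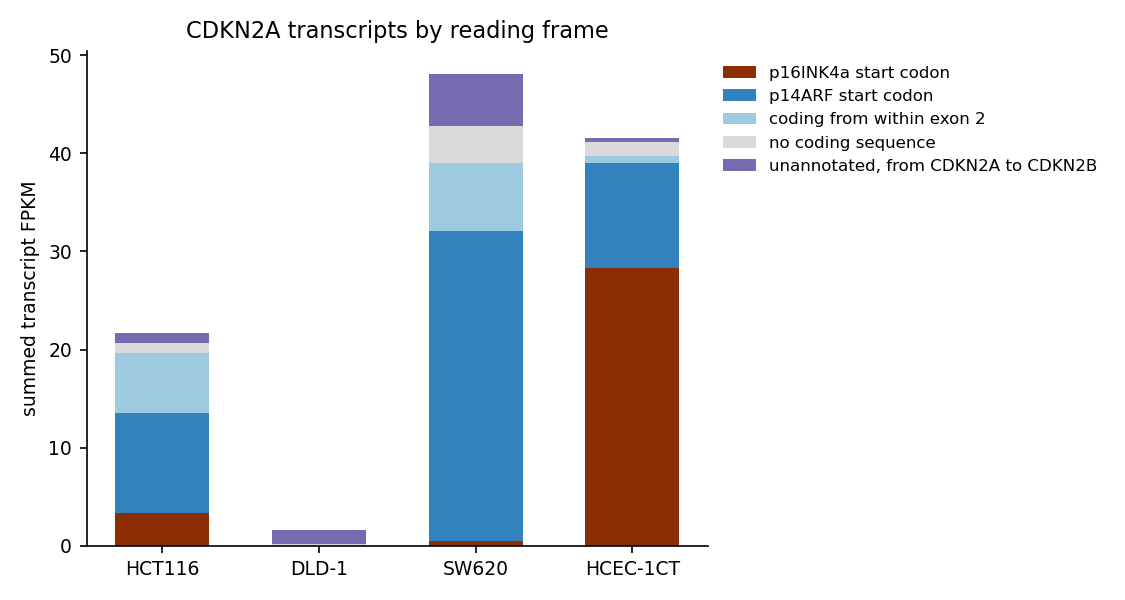
Summed FPKM of CDKN2A transcripts by reading frame in HCT116, DLD-1, SW620 and HCEC-1CT, 1 library per line, stacked to the gene's value. In DLD-1 nearly all signal is the unannotated transcript at 1.44 FPKM, the p14ARF frame is the main one in SW620 at 31.6 FPKM, and the p16INK4a frame is the main one in HCEC-1CT at 28.4 FPKM.

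CDKN2B (ENSG00000147883, chr9:22002903-22009363, minus strand), the neighbouring gene for p15INK4b, did not follow CDKN2A. It stood at 7.89 FPKM in HCT116, 7.31 FPKM in DLD-1 and 17.3 FPKM in SW620, against 5.78 FPKM in HCEC-1CT. HCT116 and DLD-1 overlapped in their counting intervals, and SW620 was the highest. Its log2 ratio over HCEC-1CT was 0.39 for HCT116, 0.29 for DLD-1 and 1.43 for SW620. The ratio turned to -0.01 in HCT116 with equal library totals and to -0.06 in DLD-1 with median-ratio scaling. DLD-1 therefore kept a CDKN2B level near that of HCT116 while both CDKN2A frames were listed at 0. CDKN2B-201 held 99.0%, 98.8% and 95.7% of the gene in HCT116, DLD-1 and SW620, against 98.5% in HCEC-1CT. CDKN2B lies within the span of the antisense gene CDKN2B-AS1, which stood at 0.571, 0.0735 and 1.20 FPKM in HCT116, DLD-1 and SW620, against 1.18 FPKM in HCEC-1CT.

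CDKN1B (ENSG00000111276, chr12:12715058-12722371, plus strand), the gene for p27, which also helps D cyclins assemble with their kinases, was at 16.7 FPKM in HCT116, 48.5 FPKM in DLD-1 and 35.0 FPKM in SW620, against 17.5 FPKM in HCEC-1CT. DLD-1 and SW620 stood above the other libraries, and HCT116 did not differ from HCEC-1CT beyond the counting intervals. The log2 ratio was -0.06 for HCT116, 1.42 for DLD-1 and 0.96 for SW620, the last just inside 2-fold and at 1.00 with a pseudocount of 0.1.

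RB1 (ENSG00000139687, chr13:48303726-48599436, plus strand), the protein that the kinases phosphorylate, was lower in every cancer line. RB1 stood at 16.2 FPKM in HCT116, 13.7 FPKM in DLD-1 and 10.7 FPKM in SW620, against 24.3 FPKM in HCEC-1CT, and no intervals overlapped. On the log2 scale the ratio was -0.56 for HCT116, -0.78 for DLD-1 and -1.12 for SW620, so SW620 alone passed 2-fold. With a pseudocount of 5 the SW620 ratio was -0.90, inside 2-fold, and with median-ratio scaling the DLD-1 ratio was -1.17, past it. RB1-201 held 96.6%, 97.1% and 97.5% of the gene in HCT116, DLD-1 and SW620, against 96.1% in HCEC-1CT. RCBTB2 lies on the other strand within the RB1 span, at 0.188, 1.40 and 0.178 FPKM in HCT116, DLD-1 and SW620, against 4.18 FPKM in HCEC-1CT.

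At 2-fold, 1 of the 10 genes was higher in HCT116 (CDK6) and 2 were lower (TERT and CCND2), where 26.9% of all 18637 genes were higher and 13.1% lower. In DLD-1, 1 was higher (CDKN1B) and 2 were lower (CCND2 and CDKN2A), where 25.9% of all genes were higher and 12.9% lower. In SW620, 2 were higher (CDK6 and CDKN2B) and 3 were lower (TERT, CCND2 and RB1), where 24.8% of all genes were higher and 14.1% lower. CCND2 alone of the 10 was lower in all 3 lines, as were 7.11% of all genes, and none of the 10 was higher in all 3, as were 9.35% of all genes. TERT was lower in all 3 lines as well with median-ratio scaling, at -1.497, -1.15 and -1.92 in HCT116, DLD-1 and SW620, and with a pseudocount of 0.1, at -2.04, -1.30 and -3.43. In DLD-1 the TERT ratio stayed inside 2-fold with equal library totals, at -0.968. It also did so with equal totals without mitochondrial, 7SL and 7SK genes, at -0.974. The median log2 ratio of the 10 genes was -0.45 for HCT116, -0.01 for DLD-1 and -0.01 for SW620, beside 0.27, 0.33 and 0.21 over all genes. At 4-fold, HCT116 had 0 of the 10 higher and 1 lower, beside 9.04% and 5.01% of all genes. DLD-1 had 0 higher and 2 lower, beside 9.24% and 5.57%, and SW620 had 1 higher and 1 lower, beside 8.93% and 5.49%. CCND2 was again the gene lower in all 3 lines, as were 2.99% of all genes, while 0 of the 10 and 2.68% of all genes were higher in all 3. With so few members, a difference of 1 or 2 genes from the background share is not a result about the pathway.

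**Figure D4:**
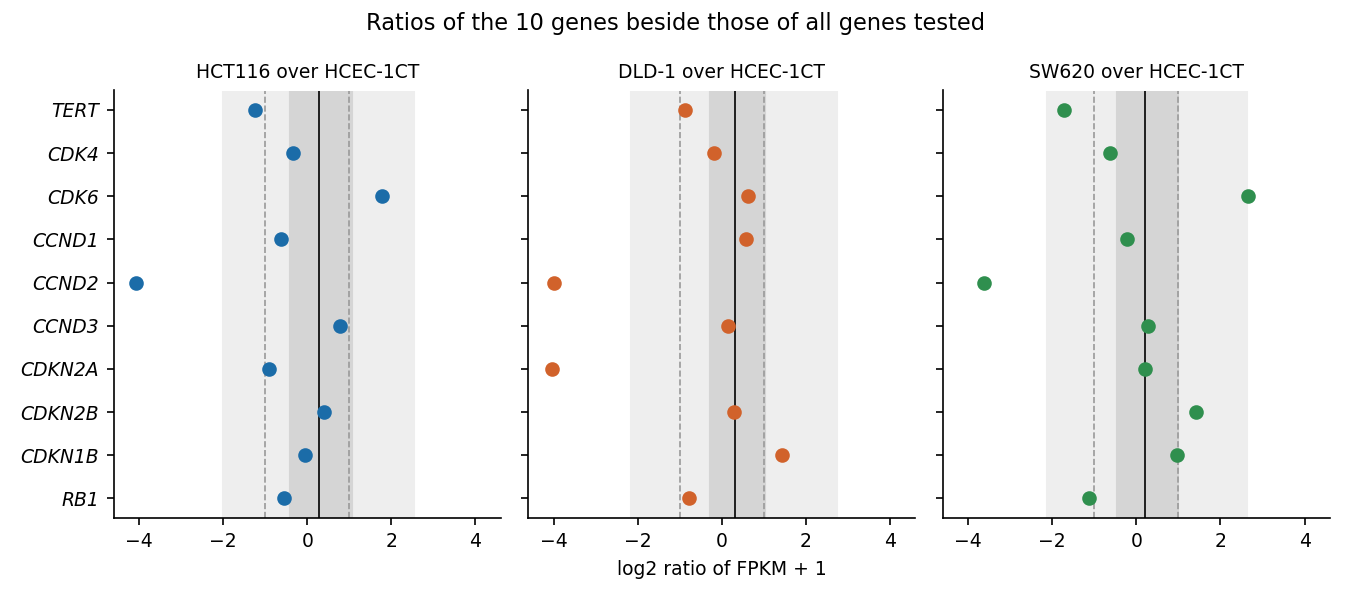
Log2 ratio of FPKM + 1 of the 10 genes in HCT116, DLD-1 and SW620 over HCEC-1CT (points), with the median of all 18637 genes (line), their middle 50% (dark band) and middle 90% (light band) and the 2-fold limits (dashed). CCND2 lies at -4.06, -3.99 and -3.62 in the 3 lines and CDKN2A at -4.04 in DLD-1, outside the light band, while CDK4 lies within 2-fold in each.

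The wider pathway was described with 11 lists of 98 genes in all, every one of which reached 1 FPKM in at least 1 library. The lists hold every member except TERT, so those members are counted again here. Of the 98, 50 were at least 2-fold higher and 7 lower in HCT116, 44 higher and 5 lower in DLD-1, and 42 higher and 5 lower in SW620. Over all 18637 genes the shares higher and lower were 26.9% and 13.1% in HCT116, 25.9% and 12.9% in DLD-1, and 24.8% and 14.1% in SW620. The median log2 ratios of the 98 were 1.02, 0.88 and 0.74 in HCT116, DLD-1 and SW620, beside 0.27, 0.33 and 0.21 over all genes. Of all genes 9.35% were higher and 7.11% lower in all 3 lines, which is the background for each list's count that follows. These lists were chosen with earlier results of these data known, and higher levels of proliferation genes in the cancer lines were among them.

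E2F target genes of S phase, which the release of E2F from RB1 turns on, had the largest share of genes higher in all 3 lines among the 11 lists. Of 20 genes, 14 were at least 2-fold higher in all 3 cancer lines and 0 lower; the medians were 2.01 for HCT116, 2.90 for DLD-1 and 1.55 for SW620. TK1, which phosphorylates thymidine, stood at 42.2, 35.1 and 15.9 FPKM in HCT116, DLD-1 and SW620, against 0.549 FPKM in HCEC-1CT. MCM6, a subunit of the replicative helicase, was at 17.9, 33.5 and 11.1 FPKM in HCT116, DLD-1 and SW620, against 0.875 FPKM in HCEC-1CT. MYBL2, a transcription factor of the cell cycle, was at 4.35, 13.4 and 9.40 FPKM in HCT116, DLD-1 and SW620, against 0.0501 FPKM in HCEC-1CT. HCEC-1CT was the lowest library for all 3, and the marker difference of that library given above stands beside this list too. ORC1, CDT1, TK1, UHRF1, RRM2, MCM6 and MYBL2 reached 1 FPKM only in cancer lines, so HCEC-1CT could not be their highest library. The same holds for CDC25A, CCNA2, CCNE2, E2F1, E2F2, E2F8 and SKP2 in the lists that follow.

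Of 5 genes for cyclins E and A with CDK2, the kinase that acts after CDK4, 2 were higher in all 3 lines and 0 lower; the medians were 1.75, 2.38 and 0.70 in HCT116, DLD-1 and SW620. CCNA2, cyclin A2, was at 7.65, 23.6 and 3.83 FPKM in HCT116, DLD-1 and SW620, against 0.503 FPKM in HCEC-1CT. CCNE1, cyclin E1, was at 14.2, 10.4 and 2.54 FPKM in the cancer lines in that order, against 1.19 FPKM in HCEC-1CT. CCNE2, cyclin E2, was at 3.48, 17.1 and 1.14 FPKM in HCT116, DLD-1 and SW620, against 0.330 FPKM in HCEC-1CT. On the scale of FPKM + 1, SW620 stayed within 2-fold for both cyclin E genes, at log2 ratios of 0.70 for CCNE1 and 0.69 for CCNE2.

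Of 13 genes of the RB family and the E2F factors, 2 were higher in all 3 lines, E2F1 and E2F2, and 0 lower; the medians were 0.52, 0.25 and 0.17 in HCT116, DLD-1 and SW620. E2F1, an activating factor, was at 6.60, 9.54 and 6.77 FPKM in HCT116, DLD-1 and SW620, against 0.583 FPKM in HCEC-1CT. E2F8, a repressive factor, was at 2.19, 7.19 and 0.418 FPKM in HCT116, DLD-1 and SW620 and was listed at 0 in HCEC-1CT. E2F7, also repressive, went the other way at 3.10, 3.40 and 6.04 FPKM in HCT116, DLD-1 and SW620, against 11.7 FPKM in HCEC-1CT, with SW620 within 2-fold.

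Of 7 INK4 and CIP/KIP inhibitors, CDKN1C alone was higher in all 3 lines and 0 were lower in all 3; the medians were 0.39, 0.37 and 1.43 in HCT116, DLD-1 and SW620. CDKN1C, p57, was at 18.4, 24.5 and 27.2 FPKM in HCT116, DLD-1 and SW620, against 1.99 FPKM in HCEC-1CT. CDKN2D, p19INK4d, was at 14.5, 3.60 and 23.5 FPKM in HCT116, DLD-1 and SW620, against 2.57 FPKM in HCEC-1CT. CDKN1A, p21, a target of p53, was at 97.5, 59.3 and 23.9 FPKM in HCT116, DLD-1 and SW620, against 142 FPKM in HCEC-1CT. CDKN1A had the highest level of the 7 genes in HCT116, DLD-1 and HCEC-1CT. In SW620 the highest was CDKN2A, whose value there was mostly of the p14ARF frame, with 0.481 FPKM of p16INK4a, and the next was CDKN1B at 35.0 FPKM. Among the 5 D cyclins and kinases, 1 was lower in all 3 lines, CCND2, and 0 were higher.

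Of 6 genes for folding and activation of CDK4, 1 was higher in all 3 lines and 0 lower; the medians were 1.45, 0.87 and 0.70 in HCT116, DLD-1 and SW620. It was HSP90AA1, a chaperone of CDK4, at 463, 381 and 343 FPKM in HCT116, DLD-1 and SW620, against 137 FPKM in HCEC-1CT. HSP90AB1, its close relative, was at 715, 384 and 320 FPKM in the cancer lines in that order, against 212 FPKM in HCEC-1CT. CDK7, of the kinase complex that activates CDK4, was at 36.1, 24.3 and 23.9 FPKM in HCT116, DLD-1 and SW620, against 12.7 FPKM in HCEC-1CT.

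Of 8 genes for turnover of D cyclins and p27, SKP2 and CKS1B were higher in all 3 lines and 0 were lower; the medians were 0.16, 0.62 and 0.36 in HCT116, DLD-1 and SW620. SKP2, the subunit that marks p27 for degradation, was at 5.91, 14.8 and 6.95 FPKM in HCT116, DLD-1 and SW620, against 0.802 FPKM in HCEC-1CT. CKS1B, its cofactor, was at 48.0, 31.1 and 30.7 FPKM in HCT116, DLD-1 and SW620, against 3.81 FPKM in HCEC-1CT. CUL1, the scaffold of that ligase, was at 11.0, 28.2 and 15.98 FPKM in HCT116, DLD-1 and SW620, against 29.3 FPKM in HCEC-1CT, past 2-fold in HCT116 alone.

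Of 9 Polycomb and ETS regulators of the INK4 locus, 0 were higher and 0 lower in all 3 lines; the medians were 0.72, 0.46 and 0.06 in HCT116, DLD-1 and SW620. ETS1, an activator of p16INK4a, was at 8.56, 1.47 and 40.4 FPKM in HCT116, DLD-1 and SW620, against 34.8 FPKM in HCEC-1CT. SW620 was thus the highest for ETS1, while its p16INK4a frame was at 0.481 FPKM, against 28.4 FPKM in HCEC-1CT. DLD-1 was the lowest for ETS1 and for both CDKN2A frames, and no link between them was tested. EED, a Polycomb subunit, was at 10.3, 18.3 and 15.4 FPKM in HCT116, DLD-1 and SW620, against 4.91 FPKM in HCEC-1CT. CBX8, another Polycomb protein, was at 8.49, 4.78 and 8.80 FPKM in the cancer lines in that order, against 2.42 FPKM in HCEC-1CT.

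Of 10 genes for the telomerase RNA and telomerase proteins, 4 (TERC, WRAP53, RUVBL2 and NHP2) were higher in all 3 lines and 0 lower; the medians were 1.46, 0.96 and 1.04 in HCT116, DLD-1 and SW620. TERC, the RNA template of telomerase, was at 63.2, 14.8 and 56.2 FPKM in HCT116, DLD-1 and SW620, against 3.77 FPKM in HCEC-1CT. WRAP53, which brings telomerase to Cajal bodies, was at 9.32, 4.69 and 12.8 FPKM in HCT116, DLD-1 and SW620, against 1.05 FPKM in HCEC-1CT. RUVBL2, an ATPase of telomerase assembly, was at 63.1, 31.5 and 40.1 FPKM in HCT116, DLD-1 and SW620, against 13.1 FPKM in HCEC-1CT. In DLD-1 the log2 ratios of RUVBL2 and NHP2, at 1.20 and 1.02, were close to the 2-fold limit. TERC has no poly(A) tail, and no label says how RNA was selected for these libraries.

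Of 9 genes of shelterin and the CST complex, which cap chromosome ends, 1 was higher in all 3 lines and 0 lower; the medians were 1.10, 0.73 and 1.46 in HCT116, DLD-1 and SW620. That gene was TERF1, which binds telomere repeats, at 13.2, 15.6 and 17.2 FPKM in HCT116, DLD-1 and SW620, against 5.61 FPKM in HCEC-1CT. Its log2 ratio in HCT116 was 1.10, close to the 2-fold limit. STN1, of the CST complex, was at 34.4, 9.18 and 46.7 FPKM in HCT116, DLD-1 and SW620, against 4.59 FPKM in HCEC-1CT. TERF2, which also binds telomere repeats, was at 25.8, 10.7 and 26.0 FPKM in HCT116, DLD-1 and SW620, against 7.97 FPKM in HCEC-1CT, with DLD-1 within 2-fold.

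Of 8 factors that bind the TERT promoter, MYC and E2F1 were higher in all 3 lines and 0 were lower; the medians were -0.38, 0.35 and 0.26 in HCT116, DLD-1 and SW620. MYC, an activator, was at 80.8, 17.5 and 57.8 FPKM in HCT116, DLD-1 and SW620, against 8.26 FPKM in HCEC-1CT, just past 2-fold in DLD-1. MXD1, which competes with MYC for MAX, was at 1.46, 50.9 and 40.4 FPKM in HCT116, DLD-1 and SW620, against 6.25 FPKM in HCEC-1CT, so HCT116 lay below HCEC-1CT and the other cancer lines above it.

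**Figure D5:**
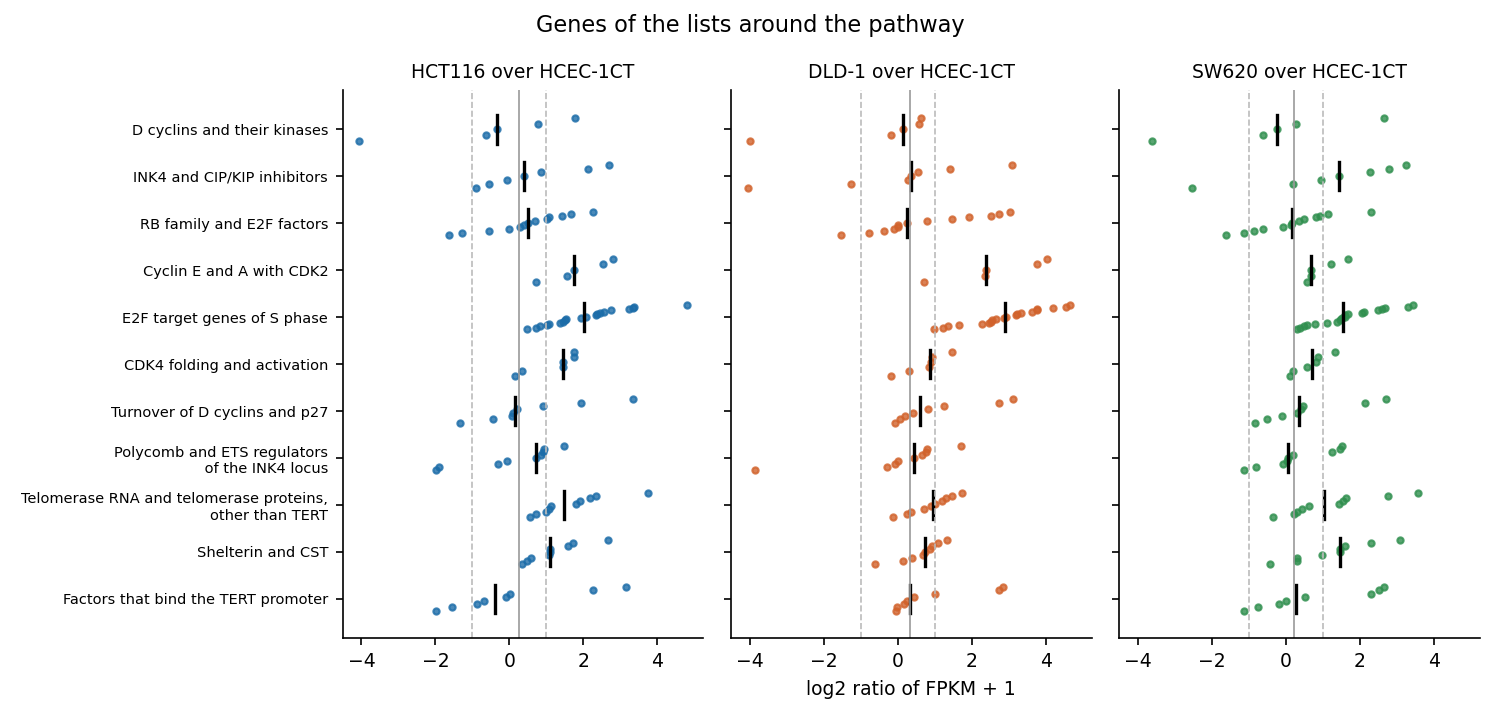
Log2 ratio of FPKM + 1 in HCT116, DLD-1 and SW620 over HCEC-1CT for each gene (points) of 11 lists around the pathway, with each list's median (black bars), the median of all 18637 genes (grey line) and the 2-fold limits (dashed). All 20 E2F target genes lie above 0 in each line, with medians of 2.01, 2.90 and 1.55.

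MYC binds the E-box CACGTG, and CDK4 and TERT are known targets, so their promoters were searched for that motif, which reads the same on both strands. In RefSeq windows of 250 bases before each annotated start (GRCh38.p14), 8 of the 10 genes had an entry, of which that of RB1 is not at the start of its main transcript RB1-201. CDK4 had 3 matches, at chr12:57752511-57752536, chr12:57752491-57752516 and chr12:57752396-57752421 with 10 bases on each side, and TERT had 1. The CDK4 matches are shown on the minus strand with the motif in capitals.
CDK4 site 1: gtcaagcggtCACGTGtgatagcaac
CDK4 site 2: agcaacagatCACGTGgctgccatcg
CDK4 site 3: gggtggcggtCACGTGcccagaacgt
Of 35116 windows, 6.34% held 1 or more matches and 0.0797% held 3 or more. The 5′ end of the main transcript CDK4-201, at 57752521, lies inside the CDK4 window, so sites 2 and 3 lie within that transcript. A match is a string of letters and not a measured site, and no binding was measured here. The levels of CDK4 and TERT in HCEC-1CT may include the introduced copies, which need not use these promoters.

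The genes nearest in pattern to 4 of the members were found by the Euclidean distance of the 4 values of log2(FPKM + 1). For CCND2 these were CARD16, ADAMTS12 and TSLP, at distances of 0.113, 0.143 and 0.188. CARD16 was listed at 0 in HCT116 and DLD-1 and stood at 0.394 FPKM in SW620, against 15.3 FPKM in HCEC-1CT. For CDKN2A they were CALD1, COL18A1 and EMP3, at distances of 0.692, 1.14 and 1.21, so no gene lay as near to it. CALD1 was at 25.4, 1.31 and 30.8 FPKM in HCT116, DLD-1 and SW620, against 44.8 FPKM in HCEC-1CT. For CDK4 they were LTBR, KLF10 and TMEM50A, at distances of 0.136, 0.186 and 0.190. For TERT they were SPTLC1P1, AC087222.1 and AL513550.1, at distances of 0.247, 0.381 and 0.388, a pseudogene and non-coding RNAs. These are descriptions over 4 libraries that share these genes' normalisation.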

How the data were processed

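RNA from spheroids of 4 colon lines was measured by RNA sequencing, 1 library per line. The deposited values are FPKM, scaled by the authors to transcript length and library size, one table giving genes and the other transcripts. FastQC and HISAT2 were used with hg38, per the submitters' processing notes; no source used here names the program behind the FPKM or its filters. In each of the 2 tables, 1 value column matched no sample and was not used. Of 58740 gene IDs, 58275 matched GENCODE 29, and 96.6% of those had the same coordinates there. The unmatched part of CDKN2A is an unannotated transcript.

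Depth was read from whole steps of FPKM multiplied by transcript length in genes with 1 transcript. Values within 0.01 of 2 steps numbered 237 to 252 per library, against 17 to 24 lying 0.25 steps further on; many values lay elsewhere. No count was recovered for every gene, so fragment numbers are approximate. Log2 ratios are of FPKM + 1, each cancer line over HCEC-1CT, called at 2-fold, over the 18637 genes that reached 1 FPKM in any library. The code was tested on simulated data. CDKN2A transcripts were assigned by their annotated start codon.

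The members and lists were chosen with earlier results of these data known. Named genes were all 10 members, the 3 genes per list with the largest absolute median ratio, the nearest measured gene on each side, the 3 genes nearest in pattern to 4 members, and the 2 most abundant transcripts per member; not all are printed. The marker lists served only to check the labels. Alternatives were other pseudocounts, scalings, folds and filters, single transcripts, and another assignment of CDKN2A transcripts. Python 3.11.15, pandas 2.3.3, numpy 2.4.6 and scipy 1.17.1 were used. The sequences of the CDKN2A reading frames are not reported here.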

Additional observations from a re-analysis of the deposited data

Results flagged for a closer look

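MXD1, an antagonist of MYC, had a log2 ratio of -1.56 in HCT116, against 2.84 in DLD-1 and 2.51 in SW620, each over HCEC-1CT. It was noted because 1 cancer line moved past 2-fold in one direction and the others in the opposite one.

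CDKN2A transcripts with the p14ARF start codon were listed at 0 FPKM in DLD-1 and stood at 31.6 FPKM in SW620, against 10.7 FPKM in HCEC-1CT. They were noted for a similar reason, as DLD-1 lay past 2-fold below HCEC-1CT and SW620 past 2-fold above it. HCT116 was within 2-fold, at a log2 ratio of -0.07. With 1 library per line, neither difference was tested.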

How the results depend on the processing

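No paired analysis was possible because each line has 1 library. For the same reason no replicate could be left out, and differences between cultures of a line are unknown. The median-ratio scaling lowered the log2 ratios by 0.38, 0.41 and 0.29 in HCT116, DLD-1 and SW620, and the other scalings by 0.09 to 0.46. None of the alternatives turned a called ratio round. Depth limits mainly TERT in SW620 and CCND2 in HCT116 and DLD-1.

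HCT116 and DLD-1 had 3 members each past 2-fold, and SW620 had 5. There were 5 in each line with median-ratio scaling, 5 in HCT116 with equal library totals, 3 in SW620 with a pseudocount of 5, and 1 in HCT116 and 2 in SW620 at 4-fold. For the scalings and the pseudocount no share of all genes is given, so these counts are not a result about the pathway. Of 30 member ratios, 2 changed their call with a pseudocount of 0.1, 3 with a pseudocount of 5, 4 with median-ratio scaling, 2 with equal totals and 1 with equal totals without mitochondrial, 7SL and 7SK genes. The TERT ratio passed 2-fold in DLD-1, at -1.30, with a pseudocount of 0.1 and, at -1.15, with median-ratio scaling; with a pseudocount of 5 it fell short in HCT116, at -0.48, and SW620, at -0.60. RB1 fell short in SW620, at -0.90, with a pseudocount of 5 and passed in DLD-1, at -1.17, with median-ratio scaling. CDKN1B reached 1.00 in SW620 with a pseudocount of 0.1.

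Of the 98 genes of the lists, 32 were higher in HCT116 and 3 lower in SW620 with a pseudocount of 5. Lower genes were 11 in HCT116 and 9 in SW620 with median-ratio scaling, and 11 and 8 with equal totals. No share of all genes under the same settings is given beside these counts. At 4-fold, HCT116 had 21 higher and 1 lower, DLD-1 had 27 and 3, and SW620 had 20 and 2. Over all genes at 4-fold, 9.04% were higher and 5.01% lower in HCT116, 9.24% and 5.57% in DLD-1, and 8.93% and 5.49% in SW620. The filter on low values moved none of the 2-fold counts of the 98 genes past 1.5 times. How many genes of each list passed 2-fold in all 3 lines was not counted again under the alternatives.

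With the most abundant transcript of each gene, the CCND1 share was 87.5, 96.3 and 91.0% in HCT116, DLD-1 and SW620, against 81.3% in HCEC-1CT. The CCND3 share was 12.5, 3.62 and 8.49%, against 2.72% in HCEC-1CT, and the CCND2 share was 15.9% in HCEC-1CT. CDK4 over CDK6 was 1.03 in HCT116 and 0.471 in SW620, against 4.86 in HCEC-1CT. The p16INK4a share in SW620 was 0% with the reference transcripts alone. With transcripts that start beside the first exon of p14ARF counted with it, an assignment chosen after seeing the data, the share was 21.6% in HCT116 and 1.23% in SW620, against 70.9% in HCEC-1CT. For DLD-1 it was 0%, on about 3 fragments (95% Wilson interval 0 to 56.1%), with no value to set it against.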

Other observations

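Genes beside the members did not always share their pattern. MTAP, the enzyme gene next to CDKN2A on chromosome 9, was at 29.6, 7.29 and 4.16 FPKM in HCT116, DLD-1 and SW620, against 10.3 FPKM in HCEC-1CT. In DLD-1, MTAP and CDKN2B were thus both above 5 FPKM while both CDKN2A frames between them were listed at 0. SLC12A7, a potassium chloride transporter gene below TERT on chromosome 5, was at 12.0, 42.4 and 50.2 FPKM in HCT116, DLD-1 and SW620, against 1.08 FPKM in HCEC-1CT, the opposite direction to TERT. CLPTM1L, on the other side of TERT, was at 34.8, 32.6 and 42.7 FPKM in the cancer lines in that order, against 29.6 FPKM in HCEC-1CT. FGF19, a growth factor gene beside CCND1 on chromosome 11, was at 11.7 FPKM in HCT116, listed at 0 in DLD-1, at 107 FPKM in SW620, and listed at 0 in HCEC-1CT, so it did not follow CCND1.

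TIGAR, the gene that follows CCND2 on chromosome 12, was at 9.15, 4.87 and 6.46 FPKM in HCT116, DLD-1 and SW620, against 3.70 FPKM in HCEC-1CT, while CCND2 was under 1 FPKM in each cancer line. ITM2B, before RB1 on chromosome 13, was at 11.0, 11.2 and 6.90 FPKM in HCT116, DLD-1 and SW620, against 19.9 FPKM in HCEC-1CT, the same direction as RB1. BYSL, the gene below CCND3 on chromosome 6, was at 16.2, 6.91 and 6.90 FPKM in HCT116, DLD-1 and SW620, against 5.74 FPKM in HCEC-1CT, with HCT116 the highest as for CCND3. These genes were looked up for their place and were not tested.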
